A study of Mus musculus with 26 samples.

Results

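The 7 sarcomeric myosin heavy chain genes Myh1, Myh2, Myh3, Myh4, Myh7, Myh7b and Myh8 were taken by symbol from both deposited expression tables, and all 7 were found in each, among 53465 genes in the regeneration table and 55487 in the myoblast table. The study followed mouse skeletal muscle after injury and C2C12 myoblasts, a mouse myoblast line that fuses into myotubes when serum is lowered, in which Mettl3, the catalytic subunit of the RNA m6A methyltransferase, was repressed. The regeneration table holds 10 libraries of tibialis anterior muscle from C57BL/6J mice described as male and 6 weeks old, with 2 libraries each before injury (CTX-D0) and on days 1, 3, 5 and 10 of recovery from cardiotoxin, a venom toxin that destroys muscle fibres (CTX-D1, CTX-D3, CTX-D5 and CTX-D10). The sources used here do not settle whether CTX-D0 muscle was untouched or sham-injected. The myoblast table holds 8 libraries, 2 each of control cells (CTRL) and cells carrying dCas9-KRAB and guides to the Mettl3 promoter (Cas9M3), in growth medium with 10% fetal bovine serum (D0) and on the third day in 2% horse serum (D3). The account of dCas9-KRAB and guides follows the study's methods, while the series description calls the Cas9M3 cells a knockout. The Cas9M3 cells were lentivirus-transduced and puromycin-selected, and the number of lines behind the libraries is not given. The line and the repression of Mettl3 therefore cannot be told apart. The other 8 libraries of the series, from Mettl3-overexpressing and GFP cells, were not analysed here. The labels do not say whether replicates were separate animals or cultures, so every p-value below measures only the spread between these libraries.

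Myosin heavy chain is the motor of the thick filament, and the isoform a fibre makes sets how fast it contracts. Myh3 (embryonic) and Myh8 (perinatal, or neonatal) are the developmental isoforms that immature and regenerating fibres make. Myh2 (IIa), Myh1 (IIx) and Myh4 (IIb) are the adult fast isoforms, in order of rising speed, Myh7 is the slow isoform, shared with heart, and Myh7b is a divergent slow-type gene whose intron carries the microRNA gene Mir499. In the mouse tibialis anterior, a fast muscle, Myh4 and Myh1 prevail.

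On the GRCm38 annotation 5 members lie side by side on the plus strand of chromosome 11, in the order Myh3 (chr11:67078300-67102291), Myh2 (chr11:67171027-67197517), Myh1 (chr11:67200052-67224575), Myh4 (chr11:67238029-67260446) and Myh8 (chr11:67277124-67308634). Myh7 is on the minus strand of chromosome 14 (chr14:54970684-54994626) and Myh7b on the plus strand of chromosome 2 (chr2:155611212-155634307). The coding sequences are alike: Myh1 is 90.95% identical to Myh2, 90.22% to Myh4, 89.3% to Myh8, 80.29% to Myh3, 77.17% to Myh7 and 68.72% to Myh7b. The longest run of identical bases between any pair of members is 268 bases, shared by Myh1 and Myh2 inside the coding sequence of exons 23 and 24 of both genes. It is shown here because a read that falls inside it cannot be assigned to either gene. The Myh1 stretch (chr11:67213219-67213597, with an intron between) is also the Myh2 stretch (chr11:67188318-67188696). Below it stand the best-matching stretches of Myh4 (chr11:67251716-67252216), Myh3 (chr11:67092341-67093171) and Myh7b (chr2:155627582-155628527), with the bases that differ from Myh1 in capitals, 11 in Myh4, 23 in Myh3 and 56 in Myh7b.
Myh1 and Myh2: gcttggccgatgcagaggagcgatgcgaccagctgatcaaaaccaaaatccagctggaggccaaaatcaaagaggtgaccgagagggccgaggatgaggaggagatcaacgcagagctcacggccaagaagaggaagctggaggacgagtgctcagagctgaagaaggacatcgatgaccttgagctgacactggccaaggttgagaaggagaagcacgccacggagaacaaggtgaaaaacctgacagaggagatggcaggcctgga
Myh4: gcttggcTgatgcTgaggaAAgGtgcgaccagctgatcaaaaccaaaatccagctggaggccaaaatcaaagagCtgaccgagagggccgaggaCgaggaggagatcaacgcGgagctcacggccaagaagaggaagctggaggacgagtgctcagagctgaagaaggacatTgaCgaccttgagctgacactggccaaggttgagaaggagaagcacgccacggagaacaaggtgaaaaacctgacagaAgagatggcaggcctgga
Myh3: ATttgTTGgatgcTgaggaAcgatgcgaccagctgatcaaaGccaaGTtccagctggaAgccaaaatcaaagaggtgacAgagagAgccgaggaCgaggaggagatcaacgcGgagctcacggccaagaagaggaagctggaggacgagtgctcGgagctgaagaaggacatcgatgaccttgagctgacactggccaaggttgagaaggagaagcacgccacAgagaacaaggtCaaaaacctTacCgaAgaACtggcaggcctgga
Myh7b: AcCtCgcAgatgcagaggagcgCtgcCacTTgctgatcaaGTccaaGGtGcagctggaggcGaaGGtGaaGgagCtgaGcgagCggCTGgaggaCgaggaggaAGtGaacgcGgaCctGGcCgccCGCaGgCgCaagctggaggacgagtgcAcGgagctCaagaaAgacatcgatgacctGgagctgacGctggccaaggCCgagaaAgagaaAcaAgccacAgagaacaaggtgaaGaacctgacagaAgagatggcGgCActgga
Counted in windows of 100 bases along the longest coding transcript, 9.46% of Myh1 and 9.17% of Myh2 recur in another member, against 5.17% of Myh8, 3.85% of Myh4 and none of Myh3, Myh7 and Myh7b. Of Myh7, 13.9% recurs in some other annotated gene, most of it in Myh6, the fast isoform of heart. How reads that match several genes were treated is not given in the sources used here, so these levels are uncertain to that extent.

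The start-site windows of 4 members are shown as well, since Myh3 and Myh8 rose together at day 3 and Myh1 and Myh4 fell together. Each runs from 250 bases before the RefSeq transcript start to 50 after it (GRCm38.p6, plus strand), namely Myh3 (chr11:67078050-67078349), Myh8 (chr11:67276874-67277173), Myh1 (chr11:67199852-67200151) and Myh4 (chr11:67237562-67237861). Capitals mark matches on either strand to the E-box CANNTG, bound by MyoD and myogenin, to the MEF2 and CArG consensus, to the MCAT element CATTCC and to the TATA box TATAAA.
Myh3: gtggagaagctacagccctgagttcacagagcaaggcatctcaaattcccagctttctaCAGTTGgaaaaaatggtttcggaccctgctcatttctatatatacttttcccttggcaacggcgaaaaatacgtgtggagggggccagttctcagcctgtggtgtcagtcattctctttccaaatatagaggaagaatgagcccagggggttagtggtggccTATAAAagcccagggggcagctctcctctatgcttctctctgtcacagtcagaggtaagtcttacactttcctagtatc
Myh8: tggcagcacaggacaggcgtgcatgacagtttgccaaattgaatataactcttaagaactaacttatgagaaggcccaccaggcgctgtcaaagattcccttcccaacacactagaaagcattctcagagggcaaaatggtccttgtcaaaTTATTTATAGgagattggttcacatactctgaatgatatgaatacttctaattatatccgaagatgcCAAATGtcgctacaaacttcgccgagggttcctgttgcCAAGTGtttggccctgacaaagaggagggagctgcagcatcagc
Myh1: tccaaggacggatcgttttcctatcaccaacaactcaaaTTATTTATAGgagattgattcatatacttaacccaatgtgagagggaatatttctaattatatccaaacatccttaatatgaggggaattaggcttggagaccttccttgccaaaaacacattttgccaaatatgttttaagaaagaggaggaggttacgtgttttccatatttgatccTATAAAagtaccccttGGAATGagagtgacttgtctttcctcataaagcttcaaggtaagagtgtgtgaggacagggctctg
Myh4: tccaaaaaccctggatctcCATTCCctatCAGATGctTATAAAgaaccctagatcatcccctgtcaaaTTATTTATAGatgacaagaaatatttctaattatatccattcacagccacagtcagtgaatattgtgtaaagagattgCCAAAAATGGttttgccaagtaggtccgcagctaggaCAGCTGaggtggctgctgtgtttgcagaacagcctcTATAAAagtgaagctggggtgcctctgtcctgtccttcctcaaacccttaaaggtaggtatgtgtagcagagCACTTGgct
The same 10 letters, TTATTTATAG, matched the MEF2 consensus in Myh1 at -211, in Myh4 at -182 and in Myh8 at -99 from the start, each overlapping a TATA-box match on the other strand. The windows of Myh2, Myh3, Myh7 and Myh7b held no MEF2 match. Myh2 also fell at day 3, and its window, not shown, held a TATA match but no E-box, CArG or MCAT match. A MEF2 match was held by 3.19% of 32817 RefSeq windows of this length, a CArG match by 1.63%, MCAT by 14.7%, TATA by 13.6% and an E-box by 72.3%. The Myh3 window held 1 E-box, the Myh8 window 2, the Myh4 window 3 and the Myh1 window none. These are letter matches and say nothing of binding.

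Levels are FPKM, fragments per kilobase of exon with a scale for each library. Each table was scaled separately, so no level in muscle was compared with one in cells. The scale did not follow the total of reads on genes. For 1 kilobase of exon, 1 read was 0.0803 FPKM in CTX-D0 replicate 1 (16776000 reads) and 0.0507 in CTX-D3 replicate 1 (14326000 reads). The reads on genes behind a library numbered 14174000 to 18823000 in muscle and 14230000 to 29567000 in cells. The members together held 2.15% to 4.53% of the reads in muscle, against 11 to 7532 reads in a cell library, so the cell shares rest on few reads. Mettl3 fitted the labels, with 4.68 to 5.65 FPKM in the 4 CTRL libraries and 0.0805 to 0.331 in the 4 Cas9M3 libraries. Of the muscle libraries, 5 had at least 1 FPKM of Xist, made from the inactive X chromosome of females, namely both of CTX-D0, both of CTX-D10 and replicate 2 of CTX-D3, although the mice are described as male. Xist presence and day thus cannot be told apart outside day 3.

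Before injury the 3 adult fast isoforms made up nearly all of the sarcomeric heavy chain RNA. Myh4 measured 5647 and 3833 FPKM in the CTX-D0 libraries, 66.4% and 46.8% of the sum over the 7 members. Myh1 measured 2433 and 3233 FPKM, 28.6% and 39.5% of the sum. Myh2 measured 402 and 1071 FPKM, 4.72% and 13.1% of the sum. These 3 held 99.6% ± 0.24 of the sum (SD, n = 2). Slow Myh7 stood at 10.6 and 21.8 FPKM, perinatal Myh8 at 6.63 and 18.7, embryonic Myh3 at 3.91 and 8.57 and Myh7b at 1.79 and 1.14. The library with more Myh2 had less Myh4 at days 0, 1 and 10, while at days 3 and 5 replicate 1 had more of both.

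**Figure D1:**
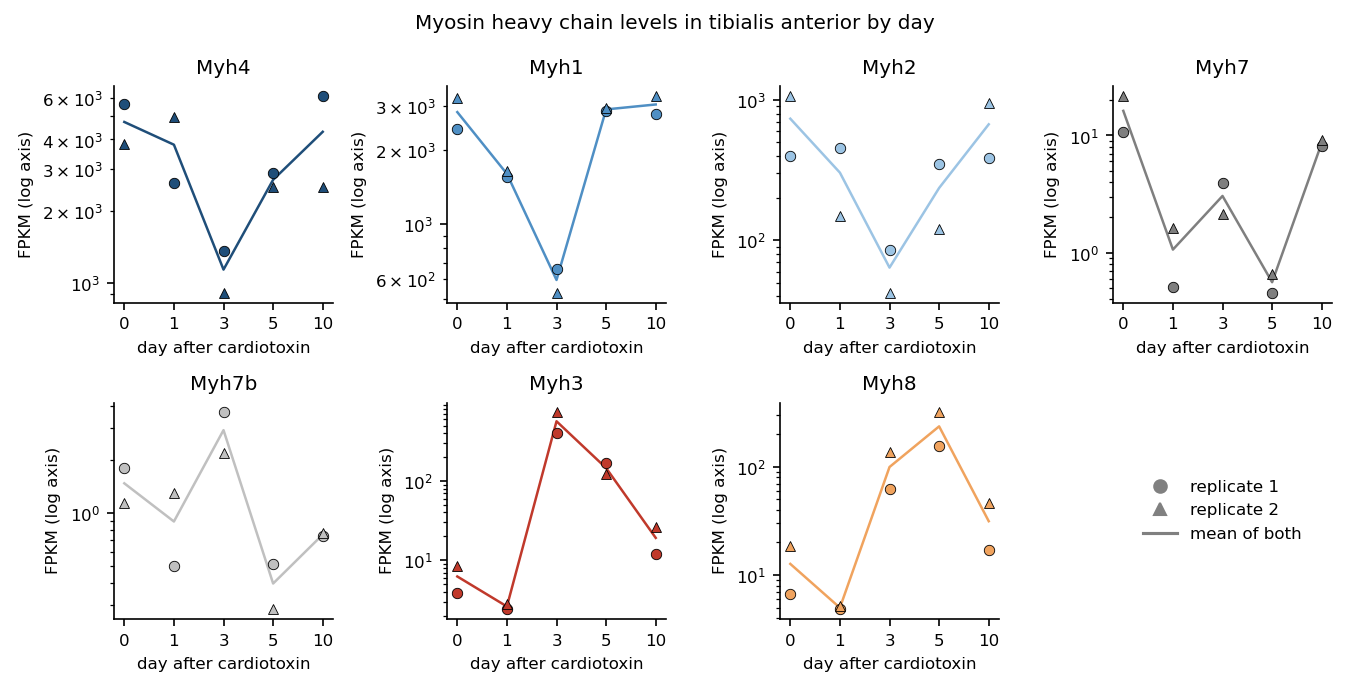
Level of each member in FPKM (log axis, scaled per panel) by day after cardiotoxin, with a circle for replicate 1, a triangle for replicate 2 and a line through the mean of both. Myh3 peaked at day 3 with 398 and 733 FPKM and Myh8 at day 5 with 154 and 318, while Myh4, Myh1 and Myh2 were lowest at day 3.

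The first question was what the day after injury does to the isoforms, by CTX-D1 against CTX-D0. Slow Myh7 was the only member whose fall passed the threshold, from 10.6 and 21.8 FPKM to 0.511 and 1.62. On the scale of log2(FPKM + 0.1), on which all changes here are given, Myh7 dropped by 3.90 ± 0.54 (SE; 15.0-fold lower, adjusted p = 0.0204 by limma with Benjamini-Hochberg adjustment over all genes tested). The other 6 members were also lower on average, with adjusted p from 0.0725 for Myh1 to 0.674 for Myh4. Embryonic Myh3 stood at 2.41 and 2.81 FPKM and Myh8 at 4.84 and 5.15, both at their lowest of the 5 days. So 1 of 7 members passed, where 6% of 16753 genes did. The call was lost with a term for Xist, under which no gene of the table passed and 1811 had an unadjusted p under 0.05. It was also lost without replicate 1 or replicate 2 of CTX-D0 or replicate 1 of CTX-D1, where fewer genes of the table passed as well.

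By day 3 the developmental isoforms had risen and the adult ones had fallen. Embryonic Myh3 reached 398 and 733 FPKM, from 3.91 and 8.57 at day 0. This was a rise of 6.52 ± 0.50 (91.7-fold, adjusted p = 0.000269). Perinatal Myh8 reached 62.8 and 136 FPKM, a rise of 3.04 ± 0.66 (8.22-fold, adjusted p = 0.00739). For both, every day 3 library lay above every day 0 library. Such separation of 2 libraries from 2 cannot reach an exact permutation p under 0.333. Its share among all genes is not given here.

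The 3 adult fast isoforms fell together. Myh4 (IIb) stood at 1363 and 907 FPKM at day 3, having dropped by 2.07 ± 0.49 (4.19-fold lower, adjusted p = 0.0106). Myh1 (IIx) stood at 663 and 530 FPKM, having dropped by 2.24 ± 0.22 (4.73-fold, adjusted p = 0.000407). Myh2 (IIa) stood at 85.7 and 42.4 FPKM, having dropped by 3.44 ± 0.81 (10.9-fold, adjusted p = 0.00984). The fall of Myh2 was not tested against those of Myh1 and Myh4. Slow Myh7 stood at 3.95 and 2.15 FPKM, having dropped by 2.34 ± 0.54 (adjusted p = 0.00923). Myh7b was at its highest, with 3.70 and 2.17 FPKM, and did not pass (adjusted p = 0.131).

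Thus 6 of 7 members passed in CTX-D3 against CTX-D0, where 48.8% of the genes tested did. Against CTX-D1, 5 of 7 passed and the background was 31.1%: Myh3 rose by 7.64 ± 0.50 (adjusted p = 0.00094), Myh8 by 4.18 ± 0.66 (adjusted p = 0.00507) and Myh7b by 1.69 ± 0.46 (adjusted p = 0.0295), while Myh1 dropped by 1.43 ± 0.22 (adjusted p = 0.00493) and Myh4 by 1.70 ± 0.49 (adjusted p = 0.0349). With the Xist term the counts were 6 and 3, where 5855 and 1369 of 16753 genes passed. Whenever 1 library of their days was left out the counts stayed the same or fell, while the calls over all genes fell. The day 0 count fell most without replicate 2 of CTX-D3. The most abundant members depended on the scaling: after quantile normalization Myh4 differed by -0.08 from day 0 (adjusted p = 0.878) and by -0.10 from day 1 (adjusted p = 0.861), and Myh1 by -0.73 (adjusted p = 0.0348) and -0.51 (adjusted p = 0.136).

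The fall of the adult isoforms moved with the makeup of the tissue. The summed level of 7 fibre markers (Acta1, Ckm, Ttn, Tnnt3, Mylpf, Atp2a1 and Pvalb) was 57487 to 65424 FPKM at day 0 and 15268 to 18979 at day 3, and all 7 fell. The summed level of 6 macrophage markers was 46.5 to 96.0 FPKM at day 0 and 1568 to 1607 at day 3, and all 6 rose. The summed level of the members themselves was 8504 and 8188 FPKM at day 0 and 2580 and 2353 at day 3. As a percentage of the reads on genes, the members held 3.90% and 4.28% at day 0 and 2.24% and 2.15% at day 3. The size of their fall thus depends on the scale. The part of these marker differences in the changes of the members was not tested, and in whole muscle fewer fibres and less RNA per fibre cannot be told apart. Of 4 cardiac markers (Myh6, Nppa, Tnnt2 and Tnni3) 1 rose, Tnnt2, from 1.52 to 84.8 FPKM on average (adjusted p = 0.000482), while Myh6 was at 0.279 and 0.198 FPKM at day 3 and Nppa at 0.145 on average.

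Shares within the family do not scale with the total amount of myosin RNA in a sample. Myh3 and Myh8 together made up 0.124% and 0.333% of the summed FPKM at day 0, 0.156% and 0.117% at day 1, 17.9% and 36.9% at day 3, 5.03% and 7.28% at day 5, and 0.310% and 1.06% at day 10. Day 3 stood above all other days, and within it the libraries differed more than at any other day in percentage points. Even at day 3 the most abundant member in both libraries was Myh4, with 52.8% and 38.5%. Myh3 held 15.4% and 31.2% and Myh1 25.7% and 22.5%, so that Myh3 ranked behind Myh1 in replicate 1 and ahead of it in replicate 2. Shares are descriptions, and 2 libraries against 2 cannot reach an exact permutation p under 0.333.

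**Figure D2:**
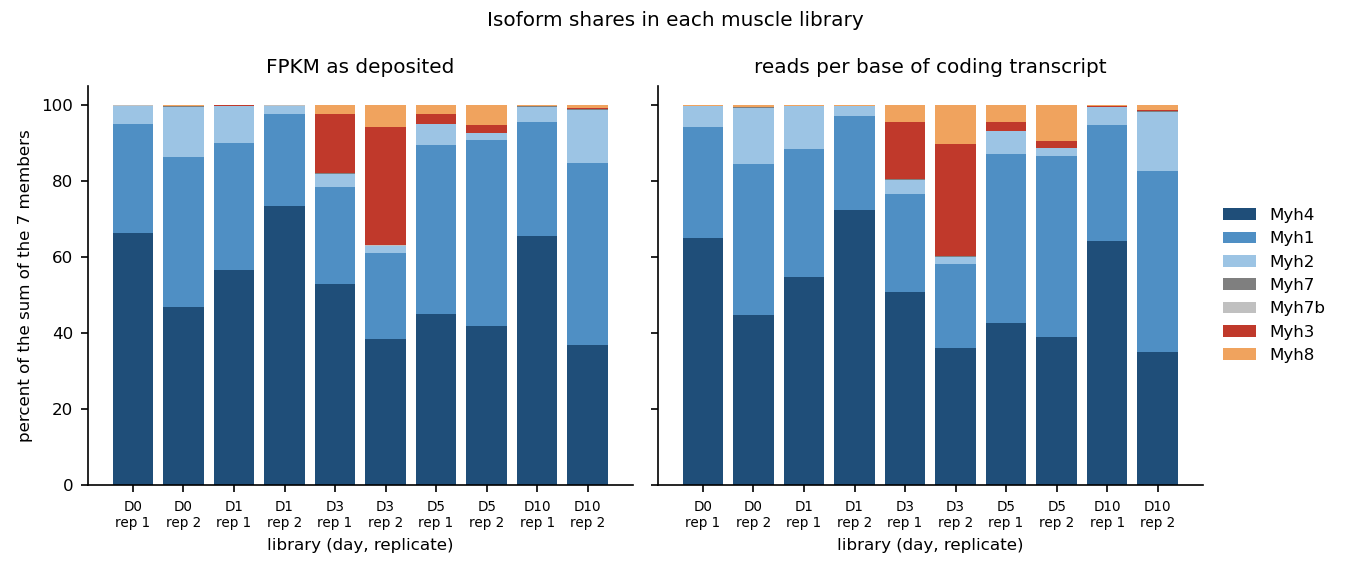
Share of each member, in percent of the sum over the 7, in each of the 10 muscle libraries, from FPKM as deposited (left) and from reads per base of the longest coding transcript (right). The red (Myh3) and orange (Myh8) blocks together fill 17.9% and 36.9% of the day 3 bars on the left and under 8% of the other bars on the left.

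The share of Myh8 depends on the length used. The annotation gives Myh8 11772 bases of exon, a length that counts the exons of all its annotated transcripts, while its longest coding transcript has 6149 bases. For Myh3 these are 6057 and 6031. FPKM divides by the first length. Divided by the coding transcript, the share of Myh8 was 7.42% ± 4.2 at day 3 in place of 4.11% ± 2.4, and 6.88% ± 3.6 at day 5 in place of 3.83% ± 2.0 (SD, n = 2). The ratio of Myh8 to Myh3 was 0.158 and 0.186 at day 3 and 0.904 and 2.63 at day 5 in FPKM. Per coding transcript it was 0.301 and 0.354 at day 3 and 1.72 and 5.01 at day 5. So Myh3 exceeded Myh8 at day 3 in both libraries on both scales, while at day 5 Myh8 was ahead in both libraries per coding transcript and in replicate 2 in FPKM. At days 0, 1 and 10 Myh8 was ahead in all 6 libraries on both scales, with FPKM ratios from 1.44 to 2.19. Fold changes of a gene between days do not depend on its length.

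From day 3 to day 5 Myh1 rose. It reached 2871 and 2939 FPKM, a rise of 2.29 ± 0.22 over day 3 (4.90-fold, adjusted p = 0.00525), which is 0.05 ± 0.22 from day 0 (adjusted p = 0.895). Myh4 stood at 2895 and 2521 FPKM (1.28 ± 0.49, adjusted p = 0.132) and Myh2 at 352 and 121 (1.77 ± 0.81, adjusted p = 0.191). Neither passed against day 3 or day 0. Over the same days the summed fibre markers went to 46861 to 48929 FPKM, with 5 of 7 called higher, and the macrophage markers to 459 to 524 FPKM, with 1 of 6 called lower; their part in these changes was not tested. At this day Myh1 and Myh4 were nearly level, with ratios of 0.991 and 1.17, against 0.431 and 0.844 at day 0, and the Myh1 share was 44.6% and 48.8%.

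Of the developmental isoforms at day 5, Myh3 passed against day 3 and Myh8 did not. Myh3 stood at 170 and 121 FPKM, having dropped by 1.91 ± 0.50 from day 3 (3.77-fold, adjusted p = 0.0455). Myh8 stood at 154 and 318 FPKM (1.26 ± 0.66, adjusted p = 0.254). Both were still above day 0, Myh3 by 4.61 ± 0.50 (adjusted p = 0.0076) and Myh8 by 4.30 ± 0.66 (adjusted p = 0.0113). The difference between their courses was not tested.

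The slow-type genes were at their lowest mean level. Their libraries overlapped those of day 1, from which they did not differ in limma (adjusted p = 0.461 for Myh7 and 0.235 for Myh7b). Myh7 stood at 0.456 and 0.665 FPKM, with differences of -4.56 ± 0.54 from day 0 (23.5-fold lower, adjusted p = 0.00802) and -2.21 ± 0.54 from day 3 (adjusted p = 0.0379). Myh7b stood at 0.509 and 0.283 FPKM, with differences of -1.67 ± 0.46 from day 0 (adjusted p = 0.0372) and -2.61 ± 0.46 from day 3 (adjusted p = 0.015). For Myh7 that is 64 and 113 reads and for Myh7b 55 and 37. In all, 4 of 7 members passed in CTX-D5 against CTX-D0 (background 25.5%) and 4 of 7 in CTX-D5 against CTX-D3 (background 12.7%). With the Xist term both counts were 0, and 0 genes of the whole table passed (3193 and 3177 at an unadjusted p under 0.05 in limma). Both counts were also lower whenever 1 library of their days was left out, as were the calls over all genes.

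**Figure D3:**
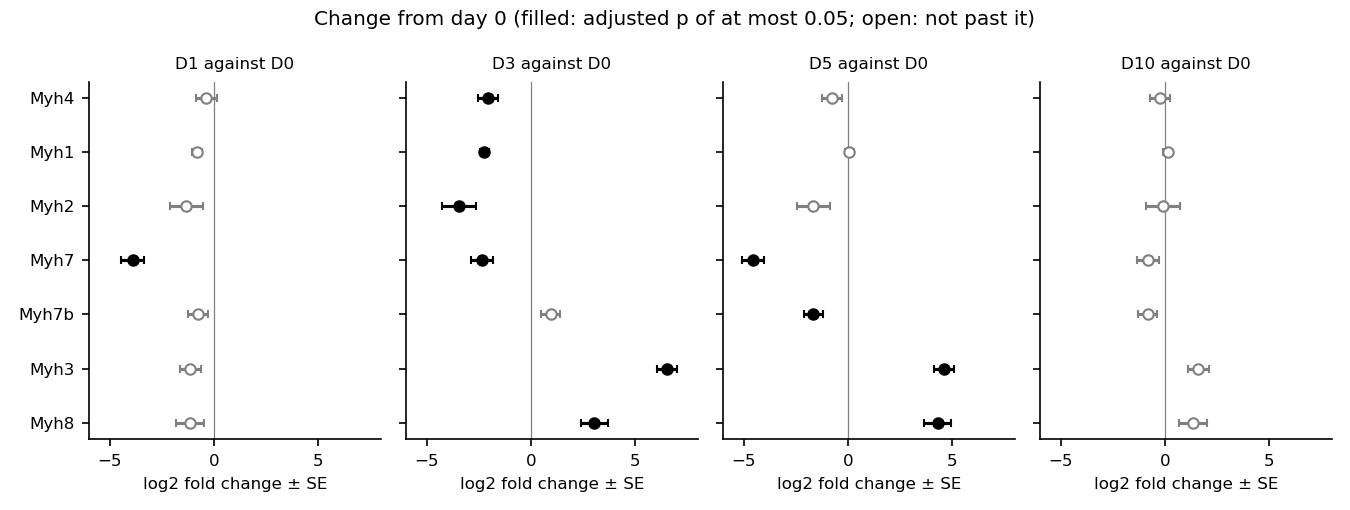
Change of each member from day 0 at days 1, 3, 5 and 10, as log2 fold change of FPKM + 0.1 with its SE from limma, filled where the adjusted p was at most 0.05. Filled points number 1, 6, 4 and 0 of 7 by day; at day 3 Myh3 (6.52) and Myh8 (3.04) lie right of 0 and 4 members left of it.

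By day 10 no member was called against day 0, where 0.00597% of the genes tested were (1 gene), and none against day 5, where 0.281% were. In limma's unadjusted test 1697 and 4143 genes had p under 0.05 in these comparisons, among them 1 member (Myh3) and 3 members (Myh7, Myh3 and Myh8). Myh4 stood at 6104 and 2515 FPKM, Myh1 at 2788 and 3295, and Myh2 at 385 and 959. Myh7 stood at 8.06 and 9.20 FPKM, 3.74 ± 0.54 above day 5 (adjusted p = 0.0517) and below both day 0 libraries (-0.82 ± 0.54, adjusted p = 0.613). Myh3 stood at 11.8 and 26.5 FPKM and Myh8 at 17.0 and 45.8, above the day 0 libraries for Myh3 (1.59 ± 0.50, adjusted p = 0.409) and overlapping them for Myh8 (1.32 ± 0.66, adjusted p = 0.545). Against day 5 they were at -3.01 ± 0.50 (adjusted p = 0.0577) and -2.98 ± 0.66 (adjusted p = 0.0799). The share of all genes set apart from day 0 as Myh3 and Myh7 were is not given here. Such separation of 2 libraries from 2 cannot reach an exact permutation p under 0.333. Leaving out replicate 2 of CTX-D10 changed which members passed against day 5. Over all alternative fits the difference from day 5 ran from 2.63 to 4.58 for Myh7. It ran from -3.89 to -2.43 for Myh3 and from -4.09 to -2.27 for Myh8.

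The days were also ordered by each member's mean level, and each day was tested against the next in that order. For Myh4 the order was day 0, 10, 1, 5 and 3, and for Myh2 it was day 0, 10, 1, 5 and 3 as well, with no neighbouring pair past the threshold (adjusted p from 0.132 to 0.922 for Myh4 and from 0.191 to 0.981 for Myh2). For Myh1 the order was day 10, 5, 0, 1 and 3, and only days 1 and 3 differed among neighbours. For Myh3 it was day 3, 5, 10, 0 and 1, and only days 3 and 5 differed. For Myh8 the order was day 5, 3, 10, 0 and 1, for Myh7 day 0, 10, 3, 1 and 5, and for Myh7b day 3, 0, 1, 10 and 5, each with no neighbouring pair past the threshold.

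The genes most like each member over the 10 muscle libraries were ranked by Pearson's r of log2(FPKM + 0.1) among 14082 genes, as a description over libraries that share their day groups. Myh3 was most like C1qtnf3 (0.986), Grb10 (0.985), Myl4 (0.984), an atrial and embryonic myosin light chain, Cdkn1c (0.984), a cell-cycle inhibitor, and Ppp2r3d (0.984). Myh8 was most like Nespas (0.989), Mdk (0.984), Nrk (0.979), Rtl3 (0.978) and Adamts15 (0.978). Myh4 was most like Actn3 (0.986), the alpha-actinin of fast fibres, Eef2k (0.983), Capza2 (0.977), Slc16a3 (0.977) and Trim24 (0.975). Myh1 followed Myhas (0.997), Mybpc1 (0.988), Pdlim5 (0.982), Grpel1 (0.976) and Taco1 (0.976). Myh2 followed Smtnl1 (0.973), Borcs7 (0.97), 9430073C21Rik (0.966), Aasdhppt (0.965) and Wdr61 (0.96). Myh7 followed CT025533.2 (0.997), Mhrt (0.991), Gm29015 (0.983), Ftsj1 (0.941) and Fndc5 (0.932). Myh7b, at 0.283 to 3.70 FPKM, was most like Pla2g7 (0.928), Rpl36a-ps2 (0.926), 1700071M16Rik (0.925), Zfp292 (0.923) and Rmdn3 (0.918). Myh3 and Myh8 correlated at 0.896, and Myh3 and Myh4 at -0.80.

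Several of these neighbours overlap the members on the opposite strand. Myhas, a minus-strand transcript (chr11:67211256-67237573) that starts just upstream of Myh4 and runs back into Myh1, shares 515 exon bases with Myh1, 8.11% of the Myh1 exons and 25.4% of its own. Its level was 215 to 1267 FPKM in muscle, and its ratio to Myh1 stayed between 0.369 and 0.44 in all 10 libraries while Myh1 itself ranged from 530 to 3295 FPKM. 9430073C21Rik shares 237 exon bases with Myh2, and Mhrt 484, Gm29015 142 and Gm31251 523 with Myh7. Trpc4ap shares 37 with Myh7b. Whether reads were counted by strand is not given in the sources used here, so reads of a member and of its antisense partner cannot be told apart where they overlap.

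**Figure D4:**
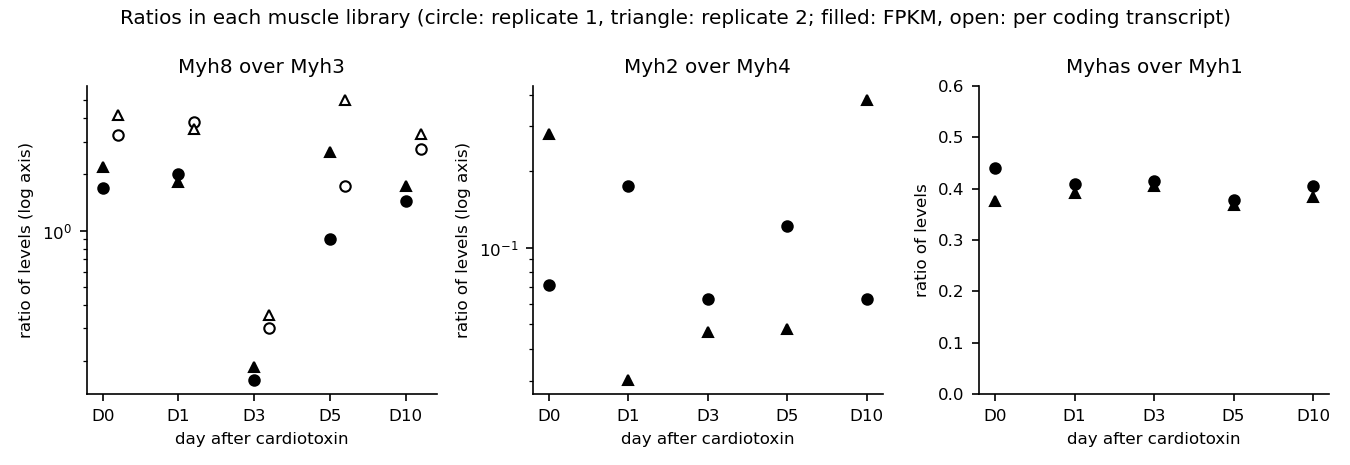
Ratios of levels in each muscle library by day: Myh8 over Myh3 (left, log axis, filled from FPKM and open per coding transcript), Myh2 over Myh4 (middle, log axis) and Myhas over Myh1 (right). Myh8 over Myh3 is lowest at day 3 (0.158 and 0.186), Myh2 over Myh4 differs most between replicates at days 0, 1 and 10, and Myhas over Myh1 stays between 0.369 and 0.44.

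Partners and regulators of the myosin heavy chains, listed by role, were tested in the same fits. The list of myosin light chains also includes the light chain kinase Mylk2. Of its 12 tested genes, 4 rose and 6 fell in CTX-D3 against CTX-D0, with a median of -0.48 where all genes tested had 0.01. Over all genes 48.8% passed, 4104 up and 4075 down of 16753, against which the counts of this and the next lists are to be read. Myl4 rose from 3.72 to 114 FPKM on average (4.97 ± 0.63, adjusted p = 0.000806). Myl3 and Myl2, the ventricular and slow-fibre light chains, fell from 120 to 4.11 FPKM and from 47.1 to 4.34 FPKM (adjusted p = 0.00465 and 0.0174). At day 5 they stood at 1.395 and 1.17 FPKM on average and did not pass against day 3 (adjusted p = 0.532 for Myl3 and 0.51 for Myl2). Of 9 tested thick filament partners, 2 rose and 6 fell at day 3 against day 0, with a median of -1.86. The falls included those of the M-band protein Myom1 (-2.02 ± 0.21, adjusted p = 0.00046) and the fast myosin-binding protein Mybpc2 (-1.93 ± 0.39, adjusted p = 0.00514). Mybpc1, the slow-type myosin-binding protein C, rose from 212 to 809 FPKM from day 3 to day 5 (1.96 ± 0.20, adjusted p = 0.00525), a call lost with the Xist term and without replicate 2 of CTX-D3, where 0 genes of the table passed (3177 and 3013 at an unadjusted p under 0.05 in limma).

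Of 8 tested genes of myosin folding and turnover, 2 rose and 3 fell at day 3 against day 0 (48.8% of all genes passed), with a median of -0.19. The chaperone Hsp90aa1 rose (1.45 ± 0.16, adjusted p = 0.00052), and the muscle methyltransferase Smyd1 (-1.17 ± 0.12, adjusted p = 0.000473) and the ubiquitin ligase Trim54 (-1.80 ± 0.28, adjusted p = 0.00169) fell. Of 32 tested regulators of fibre type and myogenesis, 6 rose and 15 fell, with a median of -0.60. Myog rose from 9.35 to 248 FPKM (4.73 ± 0.39, adjusted p = 0.000285), Myod1 from 15.5 to 72.9 (2.28 ± 0.45, adjusted p = 0.00468), and Vgll2 fell from 82.8 to 15.7 (-2.36 ± 0.29, adjusted p = 0.000725). Of the noncoding transcripts at myosin genes, Myhas (-2.23 ± 0.18, adjusted p = 0.000276) and 2310065F04Rik (-2.66 ± 0.65, adjusted p = 0.0115) were tested and both fell. Among 6 tested heavy chains of other tissues, 1 rose and 2 fell. Nonmuscle Myh9 rose (1.44 ± 0.34, adjusted p = 0.0103), and Myh14 (-2.02 ± 0.36, adjusted p = 0.00298) and smooth-muscle Myh11 (-1.42 ± 0.51, adjusted p = 0.0493) fell. The extraocular isoform Myh13 stayed at 0.102 to 2.52 FPKM and Myh6 at 0.151 to 1.43 in all 10 libraries.

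Of the 7 members in C2C12 cells, 2 (Myh3 and Myh1) reached 0.5 FPKM in at least 2 libraries and entered the test. Myh2, Myh4, Myh7, Myh7b and Myh8 stayed under 0.5 FPKM in all 8 libraries. In control cells on the third day of differentiation Myh3 measured 39.3 and 20.998 FPKM, 87.5% and 88.5% of the sum over the members, and Myh1 4.86 and 2.27 FPKM, 10.8% and 9.56%. Myh8 was at 0.0651 and 0.0408 FPKM (21 and 8 reads), so the FPKM ratio of perinatal to embryonic isoform was 0.00166 and 0.00194.

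Over the 8 cell libraries, among 12445 genes, the genes most like Myh3 included Hrc (0.99), Klhl30 (0.989), Eaf1 (0.989) and Sh3glb1 (0.988). Myh1 was most like Ammecr1 (0.984), Wdr4 (0.968), 2810004N23Rik (0.967), Psme3 (0.967) and Cux1 (0.966). Myh1 and Myh3 correlated at 0.826.

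**Figure D5:**
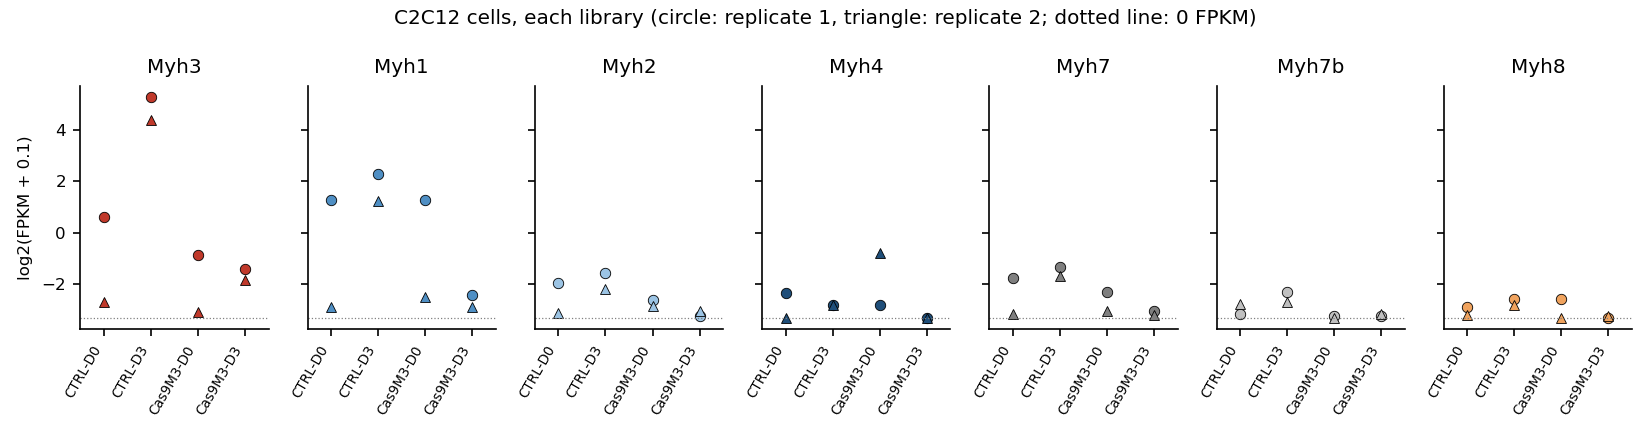
Level of each member as log2(FPKM + 0.1) in each of the 8 C2C12 libraries, with a circle for replicate 1 and a triangle for replicate 2; the dotted line is 0 FPKM. Myh3 is high only in the CTRL-D3 libraries (39.3 and 20.998 FPKM), and replicate 1 stands above replicate 2 for Myh1 and Myh3 in every group.

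In growth medium the replicates of each arm stood apart. Myh3 measured 1.45 and 0.0513 FPKM in CTRL-D0, and Myh1 2.30 and 0.0326. In Cas9M3-D0 Myh3 measured 0.445 and 0.018 FPKM, and Myh1 2.33 and 0.0772. Replicate 1 was higher in both arms, as was its summed level of the 7 fibre markers (151 against 23.1 FPKM in CTRL-D0 and 105 against 5.80 in Cas9M3-D0). CTRL-D0 replicate 2 held 11 reads of the members in all. Of the 71 member reads of Cas9M3-D0 replicate 2, 52 were of Myh4 (0.471 FPKM), against 8 in replicate 1 and none in either Cas9M3-D3 library, where a count of 0 allows up to 0.0179 and 0.0339 FPKM (3 reads).

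In control cells the difference of CTRL-D3 from CTRL-D0 was 5.90 ± 1.19 for Myh3 (59.5-fold higher, adjusted p = 0.0862) and 2.60 ± 1.65 for Myh1 (adjusted p = 0.415). Both CTRL-D3 libraries lay above both CTRL-D0 libraries for Myh3, while for Myh1 the groups overlapped. The share of all genes separated in this way is not given here, and 2 libraries against 2 cannot reach an exact permutation p under 0.333. In limma without a replicate block, 0 of 2 tested members passed, where 1.14% of 13824 genes did, and 1 had an unadjusted p under 0.05. Same-numbered cell libraries deviated together from their group means, and with the replicate number as a block Myh3 passed (adjusted p = 0.0276, SE 0.72). With that block 411 of 13824 genes passed. Without replicate 1 of CTRL-D0 the Myh3 difference was 7.57.

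In Cas9M3 cells both members were low on the third day. There Myh3 stood at 0.272 and 0.180 FPKM (46 and 16 reads) and Myh1 at 0.0847 and 0.0321 (15 and 3 reads). Against CTRL-D3 these are differences of -6.48 ± 1.19 for Myh3 (89.3-fold lower, adjusted p = 0.0571) and -4.46 ± 1.65 for Myh1 (22.0-fold, adjusted p = 0.233). For both genes every Cas9M3-D3 library lay below every CTRL-D3 library. Here too the share of all genes so separated is not given, and the exact permutation p cannot be under 0.333. In limma without the block, 0 of 2 tested members passed, where 1.98% of genes did, and both had an unadjusted p under 0.05. With the replicate block Myh3 passed (adjusted p = 0.0206) and Myh1 did not (adjusted p = 0.073), where 505 of 13824 genes passed. In a limma fit of these 4 libraries alone both members passed (adjusted p = 0.00107 and 0.00488), but so did 2828 of 13079 genes. The other 5 members were also lower in Cas9M3-D3 on average, from 0.253 to 0.0144 FPKM for Myh7, from 0.179 to 0.0121 for Myh2 and from 0.0529 to 0.00289 for Myh8, with 0 to 5 reads of each in a Cas9M3-D3 library.

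The remaining comparisons in cells gave no call. In growth medium (Cas9M3-D0 against CTRL-D0, background 0%, with 1244 genes at an unadjusted p under 0.05 in limma) the adjusted p was 0.83 for Myh3 and 0.979 for Myh1. From growth to differentiation in Cas9M3 cells (background 0.0289%) the difference was 0.35 ± 1.19 for Myh3 (adjusted p = 0.964) and -2.07 ± 1.65 for Myh1 (adjusted p = 0.738). For Myh3 the numbered pairs went opposite ways, from 0.445 to 0.272 FPKM in replicate 1 (85 to 46 reads) and from 0.018 to 0.180 in replicate 2 (2 to 16 reads). Whether the Cas9M3 difference depends on stage was tested as an interaction (background 0%, with 1198 genes at an unadjusted p under 0.05). It was -5.55 ± 1.69 for Myh3 (adjusted p = 0.436) and -4.67 ± 2.33 for Myh1 (adjusted p = 0.625), and neither passed with the replicate block (adjusted p = 0.185 and 0.294).

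Within the family, Myh3 kept the largest share in Cas9M3-D3 cells. It took 46 of 68 member reads in replicate 1 (67.6%, 95% exact binomial interval 55.2% to 78.5%) and 16 of 24 in replicate 2 (66.7%, 44.7% to 84.4%), against 86.6% (85.8% to 87.4%) and 87.5% (86.1% to 88.8%) in CTRL-D3. In growth medium Myh1 led in replicate 1 of both arms, with 53.8% (50.4% to 57.2%) in CTRL-D0 and 74.4% (70.8% to 77.7%) in Cas9M3-D0. These intervals cover counting error only, and counts of reads are not counts of molecules.

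Partners of the heavy chains were tested in the same fits, without the replicate block. With the block, 411 genes of the table passed in CTRL-D3 against CTRL-D0, in place of 158. In Cas9M3-D3 against CTRL-D3, 505 passed in place of 274. The counts of partners called with the block are not given here. Of 10 tested genes of the light chain list, 3 rose in CTRL-D3 against CTRL-D0, where 1.14% of all genes passed. They were Myl4 (3.81 ± 0.56, adjusted p = 0.0438), Myl9 (3.16 ± 0.26, adjusted p = 0.0206) and Myl6b (2.24 ± 0.24, adjusted p = 0.0244), with a median of 2.52 over the list. In Cas9M3-D3 against CTRL-D3, where 1.98% of all genes passed, 2 of them fell, Myl4 from 13.0 to 0.641 FPKM (-4.13 ± 0.56, adjusted p = 0.0304) and Myl6b from 23.9 to 6.33 (-1.93 ± 0.24, adjusted p = 0.0262). Of 25 tested regulators, Myod1 (30.8 to 4.36 FPKM, adjusted p = 0.0337) and Mef2a (25.9 to 7.91 FPKM, adjusted p = 0.048) fell. Of 8 genes of myosin folding and turnover, Trim54 fell (18.1 to 0.367 FPKM, adjusted p = 0.0492). Of 6 tested thick filament partners 0 passed in limma and 6 had an unadjusted p under 0.05, with a median of -3.64 where all genes tested had -0.05. The summed fibre markers were 653 to 657 FPKM in CTRL-D3 and 15.1 to 20.1 in Cas9M3-D3, and 1 of these 7 markers passed the test. The part of this marker difference in that of Myh3 was not tested. All of these calls were lost when single libraries were left out, since 0 genes of the whole table passed in CTRL-D3 against CTRL-D0 without either CTRL-D3 library (985 and 1279 at an unadjusted p under 0.05 in limma), and 0 in Cas9M3-D3 against CTRL-D3 without any 1 of the 4 libraries (1071 to 1318).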

How the data were processed

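RNA libraries were made with the SMARTER mRNA-Seq kit. Per the labels and the study's methods, HISAT2 was run against GRCm38, featureCounts gave reads per Ensembl gene, and the authors turned these into FPKM with the fpkm function of DESeq2; both deposited tables hold FPKM, scaled separately. The counting strand is not given in the sources used here. Divided by the FPKM of 1 read, 97.2% to 98.0% of low values (up to 10 reads) in muscle and 98.8% to 99.0% in cells lay within 0.05 of a whole read, which gave reads and depth from GENCODE M21 exon lengths. Genes reaching 0.5 FPKM in 2 or more libraries were fitted as log2(FPKM + 0.1) by limma 3.58.1 (R 4.3.3, eBayes with trend), all groups of a table in 1 fit, with Benjamini-Hochberg adjustment over the 16753 genes tested in muscle and 13824 in cells. A gene passed at an adjusted p of at most 0.05. All 7 members are named in muscle, and from each list up to 3 called genes with the largest changes and at least 1 FPKM; some genes that this rule names are not reported here. The members and lists were chosen with earlier results of these data known. Deviations of same-numbered libraries from their group means correlated at 0.279 to 0.68 in cells, over 0.1 in 6 of 6 pairs of groups. The replicate numbers, which the labels give, were therefore taken to pair the cell libraries. The main fit did not use this pairing, which entered only with the replicate block. The limma script was tested on simulated data. Alternatives were other pseudocounts, filters, scalings, samples and lengths, a replicate block and an Xist term; the coding transcript length was added after the data were seen.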

Additional observations from a re-analysis of the deposited data

Results flagged for a closer look

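Myh1 differed between stages with opposite signs in the CTRL and Cas9M3 arms of the C2C12 experiment, with neither change past the threshold (adjusted p = 0.415 and 0.738 by limma). It was higher on the third day than in growth medium in both numbered pairs of control libraries (2.30 to 4.86 FPKM and 0.0326 to 2.27) and lower in both pairs of Cas9M3 libraries (2.33 to 0.0847 FPKM and 0.0772 to 0.0321, the second from 9 to 3 reads). Opposite signs in the numbered pairs are what the flag selects, so they are no separate support. The share of all genes with such signs was not counted. The interaction was -4.67 on the log2 scale with an SE of 2.33, and it missed the threshold of the limma test (adjusted p = 0.625, and 0.294 with the replicate block). In growth medium Myh1 had 465 and 467 reads in replicate 1 and 2 and 9 reads in replicate 2 of the CTRL and Cas9M3 cells.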

How the results depend on the processing

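Of 760 alternative fits of a member's fold change, 654 kept direction and side of the threshold, 64 lost a call, 21 gained one and 21 changed sign. None of the 20 called changes changed sign, and 4 passed under every alternative, namely Myh3 and Myh1 in CTX-D3 against CTX-D0 and Myh3 and Myh8 in CTX-D3 against CTX-D1. With 2 libraries a group and 11 to 71 member reads in the replicate 2 libraries of growing cells, small changes were not detectable. Quantile normalization shifted the median of all genes by -0.12 in CTX-D3 against CTX-D0. Where a library was left out, its lone partner was assumed to vary like the other groups. The causes were not tested.

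The count of members called is given here with the count over all genes in brackets, where that was taken. It was 0 in CTX-D1 against CTX-D0 with the Xist term (0) or with these groups alone (11). With the Xist term it was also 0 in CTX-D5 against CTX-D0 (0) and against CTX-D3 (0), where it was 2 without a filter (1688). In CTX-D3 against CTX-D1 it was 3 without a filter (4703), after quantile normalization (5727), with the Xist term (1369) or with these groups alone (3896). It was 2 there at an absolute change of at least 2. In CTX-D10 against CTX-D5 it was 2 at a pseudocount of 1 (232) and 3 with the replicate block (463). It was 1 there at a filter of 1 FPKM (41) or after quantile normalization (98). In Cas9M3-D3 against CTRL-D3 it was 1 at a pseudocount of 1 (453), after quantile normalization (400) and with the replicate block (505). It was 2 there with these groups alone (2828). In CTRL-D3 against CTRL-D0 it was 1 at a pseudocount of 1 (254) and with the replicate block (411). With 1 library left out, the counts ran from 0 to 1 (CTX-D1 against CTX-D0), 2 to 6 (CTX-D3 against CTX-D0), 0 to 3 (CTX-D5 against CTX-D0), 3 to 5 (CTX-D3 against CTX-D1), 0 to 1 (CTX-D5 against CTX-D3), 0 to 3 (CTX-D10 against CTX-D5) and 0 to 1 (CTRL-D3 against CTRL-D0).

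In muscle, deviations of same-numbered libraries correlated at -0.0187 to 0.211, over 0.1 in 2 of 10 pairs of groups, so they share only a number there. The replicate block then also passed Myh8 in CTX-D5 against CTX-D3 (adjusted p = 0.0491) and Myh7, Myh3 and Myh8 in CTX-D10 against CTX-D5 (adjusted p = 0.0329, 0.0328 and 0.0242). In cells it passed Myh3 as given above and changed no other member's call.

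Signs changed only in uncalled fold changes. After quantile normalization these were Myh4 in CTX-D1 against CTX-D0 (0.022), Myh2 in CTX-D10 against CTX-D0 (0.16), Myh1 in CTX-D10 against CTX-D5 (-0.30) and in Cas9M3-D0 against CTRL-D0 (-0.15), and Myh3 in Cas9M3-D3 against Cas9M3-D0 (-0.23). With the Xist term it was Myh1 in CTX-D5 against CTX-D0 (-0.27). With 1 library left out, Myh4 ran from -0.83 to 0.10 in CTX-D1 against CTX-D0, from -0.89 to 0.39 in CTX-D10 against CTX-D0 and from -0.10 to 1.18 in CTX-D10 against CTX-D5. Myh1 ran from -0.15 to 0.26 in CTX-D5 against CTX-D0, from -0.093 to 0.32 in CTX-D10 against CTX-D0, from -0.059 to 0.18 in CTX-D10 against CTX-D5 and from -1.87 to 2.31 in Cas9M3-D0 against CTRL-D0. Myh2 ran from -0.82 to 0.60 in CTX-D10 against CTX-D0. Myh3 ran from -2.61 to 0.74 in Cas9M3-D0 against CTRL-D0 and from -0.75 to 1.45 in Cas9M3-D3 against Cas9M3-D0.

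The summed share of Myh3 and Myh8 was 0.210% by unique exon length, 0.214% by coding transcript length and 0.217% by undivided reads at CTX-D1, and 8.81%, 9.08% and 9.17% at CTX-D5. It was 34.0% by unique exon length and 42.8% without Myh7b in CTRL-D0, and 86.5% by unique exon length and 87.4% by undivided reads in CTRL-D3. In Cas9M3-D3 it was 68.0%, 69.5% and 69.2% by these lengths and 73.5% without Myh7b.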

Other observations

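The partners of the heavy chains also moved at other days. At day 1 the differentiation factor Myog had already risen from 9.35 to 39.0 FPKM on average (1.95 ± 0.39, adjusted p = 0.0361 by limma), while Myh3 stood at 2.41 and 2.81 FPKM, below day 0, and the antisense transcript Myhas (-0.84 ± 0.18, adjusted p = 0.042) and Myom1 (-1.003 ± 0.21, adjusted p = 0.0415) had fallen. All calls of this day were lost with the Xist term, under which 0 genes of the table passed (1811 at an unadjusted p under 0.05 in limma), and 9, 129 and 13 genes passed without replicate 1 or 2 of CTX-D0 or replicate 1 of CTX-D1, of 1005. From day 3 to day 5, where 12.7% of genes passed (1212 of 16753 upward), 3 of 12 genes of the light chain list rose. These were the light chains Myl1, from 1543 to 4839 FPKM (adjusted p = 0.00853), and Mylpf, from 3164 to 9359 FPKM (adjusted p = 0.0101), and the kinase Mylk2, from 45.0 to 137 FPKM (adjusted p = 0.0408). Over the same days Myog fell from 248 to 42.2 FPKM (adjusted p = 0.00924), Myod1 from 72.9 to 19.3 (adjusted p = 0.0331) and Mybph, a myosin-binding protein, from 231 to 85.9 (adjusted p = 0.0414). These calls too were lost with the Xist term and without replicate 2 of CTX-D3, where 0 genes passed (3177 and 3013 at an unadjusted p under 0.05 in limma), and 45 to 567 genes of 2126 passed without each other library of these days.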
